A study of Mus musculus with 7 samples.

Results

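The data describe 10 genes of the signal that starts involution of the mammary gland: *Lif*, *Lifr*, *Osmr*, *Il6st*, *Stat3*, *Socs3*, *Cebpd*, *Bcl3*, *Igfbp5* and *Tgfb3*. The genes were taken by their symbols in the GENCODE vM1 annotation, out of 37310 genes counted, and all 10 were among the 17175 genes with enough counts to be tested. RNA-seq was performed on whole mammary glands at lactation day 1 (L1) from C57BL/6 mice, in 3 WT libraries (*Tardbp* wt/wt with WAP-Cre) and 4 *Tardbp* KO libraries (*Tardbp* fl/fl with WAP-Cre), to compare gene expression with and without TDP-43, an RNA-binding protein encoded by *Tardbp*. Both genotypes thus carry Cre recombinase driven by the *Wap* promoter, which is active in luminal epithelial cells from pregnancy into lactation, so that other cells of the gland keep the gene. The age of the mice is not given in the sources used here, and the labels number the libraries of each genotype as replicates.

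When milk is no longer removed, the gland involutes. Leukemia inhibitory factor (LIF), released by the epithelium, binds its receptor LIFR together with the shared chain gp130 (encoded by *Il6st*), and Janus kinases at the receptor then phosphorylate STAT3, the transcription factor that drives death of milk-producing cells. Oncostatin M acts in the same way through OSMR and gp130. Among the genes known to follow STAT3 are *Socs3*, an inhibitor that closes the loop at gp130, and *Cebpd*, a transcription factor, whereas IGFBP5 withdraws insulin-like growth factors from the epithelium and TGF-beta 3 is an early signal of milk stasis.

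*Osmr*, *Stat3*, *Socs3* and *Cebpd* were higher in every KO library than in every WT library, by 1.65 to 2.49-fold in mean level, a separation found for 9.07% of all genes. *Il6st* and *Bcl3* were higher in 3 of 4 KO libraries. *Lif* itself, *Igfbp5* and *Tgfb3* varied more between WT libraries than between the genotypes, and *Lifr* was at about the same level in both. No gene of the 10 passed the study's limits (adjusted p under 0.01 with an absolute log2 fold change above 1) in the quasi-likelihood test of edgeR, the source of each adjusted p below unless another test is named, and 0.0% of all genes did. Nor did any reach an adjusted p under 0.05, as 0.00582% of all genes did. At an unadjusted p under 0.05, 6 of the 10 genes were higher and 0 lower, whereas 21.4% of all genes passed, 10.7% higher and 10.7% lower. The 10 genes were chosen with earlier results of these data known. This count and the fold changes that follow are therefore no test of an excess. Log2 fold changes were positive for 9 of the 10 genes, with a median of 0.68, beside a median of 0.05 over all genes. At these limits the exact test of edgeR called *Cebpd* (adjusted p = 0.0054), in a test that called 1.01% of all genes as higher and 1.43% as lower, and DESeq2's Wald test called *Cebpd* (adjusted p = 0.00288) and *Osmr* (adjusted p = 0.00817), in a test that called 1.69% of all genes as higher and 1.64% as lower. The study's description counts the samples as mice, and all p-values measure the spread between these libraries.

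**Figure D1:**
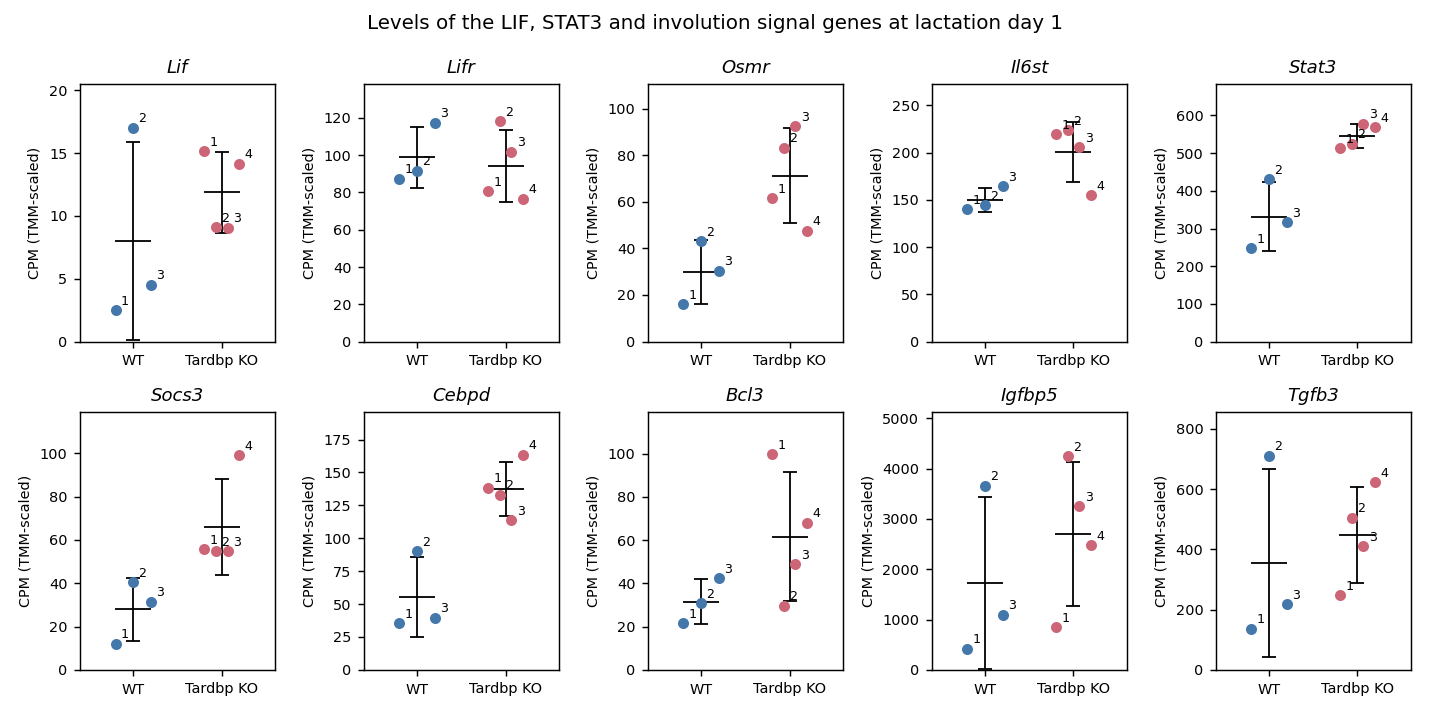
Level of each of the 10 genes in the 3 WT libraries (blue) and 4 *Tardbp* KO libraries (red), in CPM (TMM-scaled) on axes that start at 0. Points carry their replicate number, long dashes are means and bars are ± 1 SD. *Osmr*, *Stat3*, *Socs3* and *Cebpd* have all KO points above all WT points, and the WT points of *Lif*, *Igfbp5* and *Tgfb3* span most of the axis with replicate 2 on top.

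Library totals lay between 36007737 and 42811337 counts, and levels are given as CPM, counts relative to library size scaled with edgeR's TMM factors. Milk protein genes took 34.0%, 26.3% and 26.4% of the counts in WT replicates 1 to 3, and between 12.7% and 21.8% in KO libraries. *Tardbp* itself stood at 223, 178 and 159 CPM in the WT libraries (replicates 1 to 3) and at 214, 176, 154 and 208 CPM in the KO libraries (replicates 1 to 4) (log2 fold change 0.011, standard error (SE) 0.182, adjusted p = 0.982 by edgeR). The KO allele loses exons 2 and 3, which counts per gene do not resolve, so the genotypes are those of the labels. WT replicates 1 to 3 came from lanes 3, 4 and 2 and KO replicates 1 to 4 from lanes 1, 5, 4 and 4, and only lane 4 holds both genotypes. In these whole-gland RNA samples, fewer cells of a type and less RNA per cell cannot be told apart.

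The markers of the milk-producing luminal cell were abundant in all libraries, as the tissue label says, and none of the 6 was at 0. The 6 were the milk protein genes *Csn2*, *Wap* and *Lalba* with *Krt8*, *Krt18* and *Elf5*. Their summed level was between 168158 and 236417 CPM in WT libraries and between 55405 and 125992 CPM in KO libraries. Of all genes, 10.7% were lower and 10.7% higher in KO libraries at an unadjusted p under 0.05. Of the 6 markers, 3 were lower and 1 higher at that limit. Log2 fold changes ran from −1.42 to 0.64 and were positive for 2 of the 6, so the sum does not stand for each marker. Markers of B cells (5 of 5 higher at an unadjusted p under 0.05) summed to between 15.6 and 23.0 CPM in WT libraries and to 253, 24.6, 349 and 83.5 CPM in KO replicates 1 to 4. Markers of T cells (5 of 5 higher) summed to between 8.17 and 15.6 CPM in WT libraries and to 83.2, 12.7, 110.2 and 19.1 CPM in KO replicates 1 to 4. KO replicates 1 and 3 thus held far more lymphocyte RNA than any other library, and KO replicate 2 about as much as WT. Of 6 markers of macrophages and neutrophils, 5 had positive log2 fold changes, with a median of 0.57 and a highest of 2.13 over the 6. None of these markers was higher at an unadjusted p under 0.05 and 1 (*S100a8*) was lower. Their sum ranged from 79.7 to 115 CPM in WT libraries and from 62.5 to 190 CPM in KO libraries. Of the markers of myoepithelium (5), fibroblasts (5) and endothelium (4), 0 passed an unadjusted p of 0.05, and of 5 adipocyte markers 1 (*Adrb3*) was higher. No marker of any list was at 0 in any library. The part of the lower summed level of luminal markers in the results that follow was not tested. That of the lymphocyte RNA is given with a covariate and without KO replicates 1 and 3.

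*Lif* lies on the forward strand of chromosome 11 from 4157560 to 4172517 (build NCBIM37). It stood at 2.52, 17.0 and 4.52 CPM in the WT libraries (replicates 1 to 3) and at 15.2, 9.09, 9.07 and 14.2 CPM in the KO libraries (replicates 1 to 4). All KO libraries were above WT replicates 1 and 3 and below WT replicate 2, which had the highest level of all. The log2 fold change was 0.56 (SE 0.568, adjusted p = 0.616 by edgeR), a difference within the spread of the WT libraries. Without WT replicate 2 it was 1.75 (adjusted p = 0.0391), and without WT replicate 1 it was 0.14. Within lane 4, which holds WT replicate 2, the KO libraries were lower, with a log2 difference of −0.55 that has no test. The size and, within lane 4, the sign of the difference thus rested on single WT libraries.

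The receptor chains that give LIF and oncostatin M their specificity are neighbors on chromosome 15, *Osmr* on the reverse strand from 6763577 to 6824313 and *Lifr* on the forward strand from 7079559 to 7147489. *Lifr* stood at 87.4, 91.6 and 117 CPM in the WT libraries (replicates 1 to 3) and at 80.6, 118, 102 and 76.6 CPM in the KO libraries (replicates 1 to 4). The groups overlapped throughout. Its log2 fold change was −0.067 (SE 0.192, adjusted p = 0.876), and its sign turned with library size as the only scaling, where it was 0.31 beside a median of 0.42 over all genes. *Osmr* had 16.0, 43.1 and 30.4 CPM in WT libraries and 61.4, 83.3, 92.4 and 47.6 CPM in KO libraries. All 4 KO libraries were above all 3 WT libraries, although KO replicate 4 was close to WT replicate 2. The mean was 29.8 ± 13.6 CPM (SD, n = 3) in WT libraries, against 71.2 ± 20.4 CPM (SD, n = 4) in KO libraries. This gave a log2 fold change of 1.25 (SE 0.346, unadjusted p = 0.00561, adjusted p = 0.102 by edgeR). It stayed between 0.95 and 1.61 when any library was left out, and was 1.28 with the level of lymphocyte markers as a covariate.

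*Osmr* and *Lifr* were then compared within each library as a ratio of reads per kilobase of exon, which does not depend on library scaling. The ratio of *Osmr* to *Lifr* was 0.391, 1.00 and 0.554 in WT replicates 1 to 3 and 1.63, 1.51, 1.94 and 1.33 in KO replicates 1 to 4. Per kilobase of exon, *Lifr* RNA was the more abundant or the equal of *Osmr* in WT libraries, and *Osmr* RNA was the more abundant in each KO library. In CPM, which are not divided by exon length (10330 bases for *Lifr* and 4835 for *Osmr*), *Lifr* was the higher in each library. The geometric mean of the ratio was 0.601 in WT and 1.58 in KO libraries, a log2 difference of 1.398. A 2-sided exact permutation test, with 35 assignments of genotypes to libraries, gave p = 0.0286, the smallest that 3 libraries against 4 allow, and p = 0.0857 after Benjamini-Hochberg adjustment over the 3 ratios tested. A ratio shows that the genes differed unequally and not which of them changed.

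**Figure D2:**
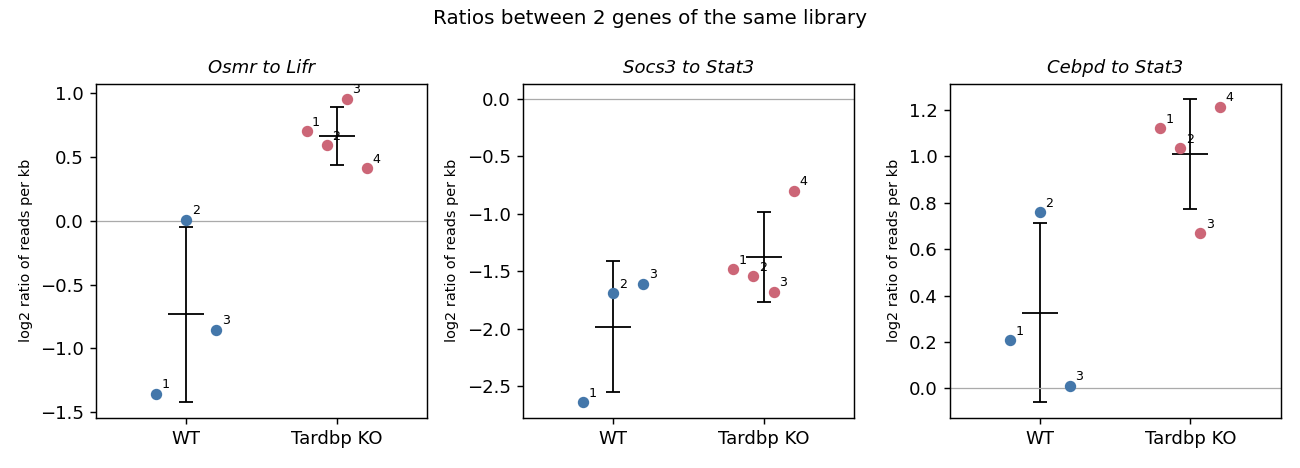
Log2 ratio of reads per kilobase between *Osmr* and *Lifr*, *Socs3* and *Stat3*, and *Cebpd* and *Stat3* in each WT (blue) and *Tardbp* KO (red) library; points carry replicate numbers, dashes are means and bars ± 1 SD, and the gray line marks equal levels. The KO libraries lie above the WT libraries without overlap for *Osmr* to *Lifr*, whereas the groups overlap for the others.

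*Il6st*, the gp130 chain that both receptors need, lies on the forward strand of chromosome 13 from 113265216 to 113297068. It stood at 140, 144 and 164 CPM in the WT libraries (replicates 1 to 3) and at 220, 224, 206 and 155 CPM in the KO libraries (replicates 1 to 4). KO replicates 1 to 3 were above all WT libraries, and KO replicate 4 was within them. The log2 fold change was 0.42 (SE 0.170, unadjusted p = 0.0345, adjusted p = 0.197 by edgeR). The difference did not keep an unadjusted p under 0.05 when WT replicate 1 or 2, or KO replicate 1, 2 or 3, was left out, which gave log2 fold changes from 0.37 to 0.41 at an unadjusted p from 0.0687 to 0.0969.

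*Stat3* is on the reverse strand of chromosome 11 from 100746412 to 100800854, next to *Stat5a*, with which it shares 0.756% of its exon bases. It stood at 248, 431 and 317 CPM in the WT libraries (replicates 1 to 3) and at 514, 525, 578 and 569 CPM in the KO libraries (replicates 1 to 4). The KO libraries were close to each other, with the highest 1.12 times the lowest, and all lay above the WT libraries, among which the highest was 1.74 times the lowest. Means were 332 ± 92.3 CPM (SD, n = 3) and 546 ± 31.8 CPM (SD, n = 4). Its log2 fold change was 0.72 (SE 0.210, unadjusted p = 0.00777, adjusted p = 0.115 by edgeR) and stayed between 0.55 and 0.95 when any library was left out. Of the 10 genes, *Osmr*, *Stat3*, *Socs3* and *Cebpd* kept an unadjusted p under 0.05 without any single library. RNA counts do not measure the phosphorylation by which STAT3 acts.

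*Socs3*, the feedback inhibitor, is on the reverse strand of chromosome 11 from 117827393 to 117831361. It stood at 12.03, 40.4 and 31.5 CPM in the WT libraries (replicates 1 to 3) and at 55.7, 54.7, 54.7 and 99.3 CPM in the KO libraries (replicates 1 to 4). KO replicates 1 to 3 were nearly equal, KO replicate 4 was far above them, and WT replicate 1 was far below all others. The log2 fold change was 1.24 (SE 0.396, unadjusted p = 0.0124, adjusted p = 0.134 by edgeR). Without KO replicate 4 it was 0.96, and without WT replicate 1 it was 0.88. To see whether a STAT recognition motif lies at its start, TTCNNNGAA, which reads the same on both strands, was searched from 500 bases before to 100 bases after the start of the longest transcript of each gene. *Socs3* held 2 matches and the other 9 genes none, while 14.5% of all tested genes held at least 1. These matches are shown, on the strand of the gene, since *Socs3* is the gene of the loop that STAT3 is known to switch on. Capitals mark the motif, which begins 61 and 334 bases before the start of the longest transcript. Both matches lie within the annotated span of the gene, which begins further upstream.

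*Socs3* motif at chr11:117830545-117830569 (reverse strand): ccgggcagTTCCAGGAAtcgggggg

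*Socs3* motif at chr11:117830818-117830842 (reverse strand): aaccagccTTCTTAGAAgggagggg

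The ratio of *Socs3* to *Stat3* in reads per kilobase was 0.160, 0.309 and 0.327 in WT replicates 1 to 3 and 0.357, 0.343, 0.312 and 0.575 in KO replicates 1 to 4. WT replicate 1 was low and KO replicate 4 high, and the other 5 libraries lay close together. The log2 difference of 0.61 had p = 0.0857 in the exact permutation test, both before and after adjustment over the 3 ratios, and was 0.28 without WT replicate 1.

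*Cebpd*, on the forward strand of chromosome 16 from 15887379 to 15888559, is listed as a pseudogene in this annotation. It stood at 35.5, 90.3 and 39.7 CPM in the WT libraries (replicates 1 to 3) and at 138, 133, 114 and 163 CPM in the KO libraries (replicates 1 to 4). All KO libraries were above WT replicate 2, which was well above the other WT libraries. The means were 55.1 ± 30.5 CPM (SD, n = 3) and 137 ± 20.4 CPM (SD, n = 4), and the log2 fold change was 1.31 (SE 0.324, unadjusted p = 0.00292, adjusted p = 0.0868 by edgeR). This was the lowest p among the 10 genes. The fold change lay between 1.08 and 1.87 when any library was left out, and was 1.43 without the lymphocyte-rich KO replicates 1 and 3. The ratio of *Cebpd* to *Stat3* was 1.16, 1.69 and 1.01 in WT replicates 1 to 3 and 2.18, 2.05, 1.59 and 2.32 in KO replicates 1 to 4. Only KO replicate 3 lay within the WT range, with a log2 difference of 0.68 between genotypes (exact permutation p = 0.0857, adjusted p = 0.0857).

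*Bcl3*, an atypical IκB protein that works with NF-κB in the nucleus, is on the reverse strand of chromosome 7 from 20393811 to 20408119. It shares 6.48% of its exon bases with the overlapping gene *Gm16175*, and reads over both were not counted. It stood at 21.6, 30.7 and 42.4 CPM in the WT libraries (replicates 1 to 3) and at 99.8, 29.7, 48.9 and 68.0 CPM in the KO libraries (replicates 1 to 4). KO replicate 1 was the highest and KO replicate 2 lay within the WT range. KO replicate 3, with the most lymphocyte RNA, was below KO replicate 4, with much less, and no cause of this order was tested. The log2 fold change of *Bcl3* was 0.96 (SE 0.392, unadjusted p = 0.0364, adjusted p = 0.202 by edgeR), but 0.20 with the level of lymphocyte markers as a covariate. Without KO replicates 1 and 3 it was 0.63, at an unadjusted p of 0.144. Leaving out WT replicate 1 or 2, or KO replicate 1 or 4, gave 0.75, 0.94, 0.63 and 0.90, at an unadjusted p from 0.0761 to 0.128.

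The covariate, the mean log2 level of the 10 B-cell and T-cell markers, left the other 5 genes of low p with positive log2 fold changes of 0.42 for *Il6st*, 0.73 for *Stat3*, 1.28 for *Osmr*, 1.52 for *Cebpd* and 1.55 for *Socs3*. With 1 degree of freedom fewer, 3 of the 10 were under an unadjusted p of 0.05 (*Osmr*, *Socs3* and *Cebpd*). Each of these had an adjusted p of 0.564 by edgeR. In this fit 1506 of 17175 genes were under an unadjusted p of 0.05. *Osmr*, *Socs3*, *Cebpd* and *Stat3* passed that limit without KO replicates 1 and 3, where 2119 of 16978 genes did. Within lane 4, with 1 WT and 2 KO libraries and hence no test, the log2 differences were 0.70 for *Osmr*, 0.32 for *Il6st*, 0.41 for *Stat3*, 0.93 for *Socs3*, 0.62 for *Cebpd* and 0.93 for *Bcl3*. They kept the direction of the whole series, and those of *Osmr*, *Stat3* and *Cebpd* were smaller by more than 1.5 times.

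*Igfbp5*, on the reverse strand of chromosome 1 from 72904506 to 72921458, was the most abundant gene of the 10. It stood at 421, 3663 and 1092 CPM in the WT libraries (replicates 1 to 3) and at 845, 4245, 3248 and 2476 CPM in the KO libraries (replicates 1 to 4). The highest WT library was 8.70 times the lowest, and KO replicate 1 was below WT replicate 3. The log2 fold change was 0.65 (SE 0.724, adjusted p = 0.653 by edgeR). *Tgfb3*, on the reverse strand of chromosome 12 from 87397694 to 87419991, stood at 136, 711 and 218 CPM in the WT libraries (replicates 1 to 3) and at 247, 506, 411 and 623 CPM in the KO libraries (replicates 1 to 4). As for *Lif*, WT replicate 2 was the highest of all libraries and all KO libraries were above the other WT libraries. Its log2 fold change was 0.33 (SE 0.537, adjusted p = 0.767). Without WT replicate 2 the log2 fold changes were 1.84 for *Igfbp5* and 1.33 for *Tgfb3* (unadjusted p = 0.0262 and 0.00903 in edgeR's test), and without WT replicate 1 they were 0.18 and −0.058. Within lane 4 they were −0.36 and −0.46.

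**Figure D3:**
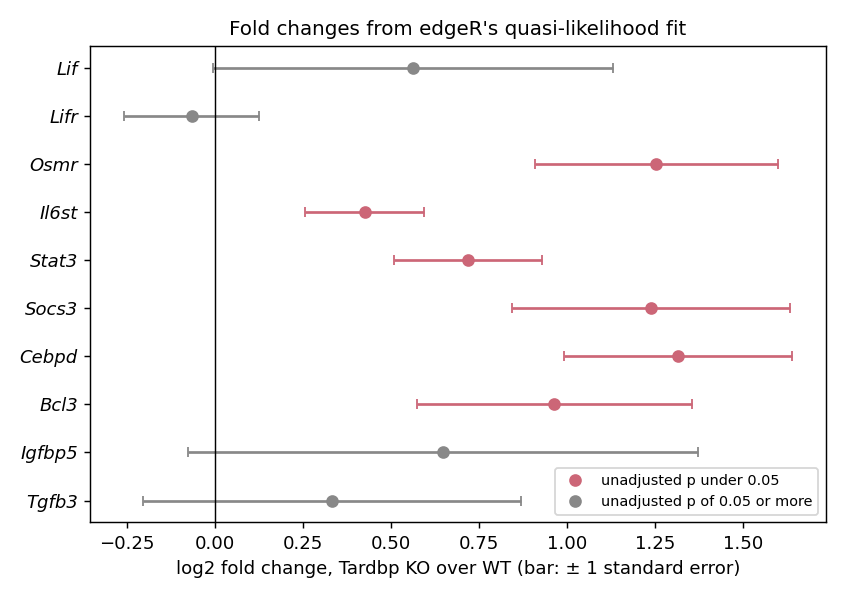
Log2 fold change of the 10 genes, *Tardbp* KO over WT, from edgeR's quasi-likelihood fit, with bars of ± 1 standard error. The 6 genes in red have an unadjusted p under 0.05 and lie between 0.42 and 1.31; the bars of *Lif*, *Lifr*, *Igfbp5* and *Tgfb3*, in gray, include 0.

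The WT libraries were unlike each other for these genes. WT replicate 1 had the lowest level among WT libraries for 10 of the 10 genes and the lowest of all 7 libraries for 9, whereas it was the lowest library for 21.7% of all genes. WT replicate 2 was the highest WT library for 7 of the 10 genes. Relative to the WT mean of log2 CPM, the values in WT replicate 1 reached −1.50 for *Igfbp5*, −1.20 for *Lif*, −1.05 for *Socs3* and −1.02 for *Tgfb3*, and in WT replicate 2 they reached 1.62, 1.56, 0.70 and 1.36 for the same genes. WT replicate 1 was also the library with the largest share of milk protein counts, and WT replicates 2 and 3 were alike in that share. The part of this in the differences between genotypes was not tested. The median log2 fold change of the 10 genes was 0.46 without WT replicate 1 and 1.47 without WT replicate 2.

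**Figure D4:**
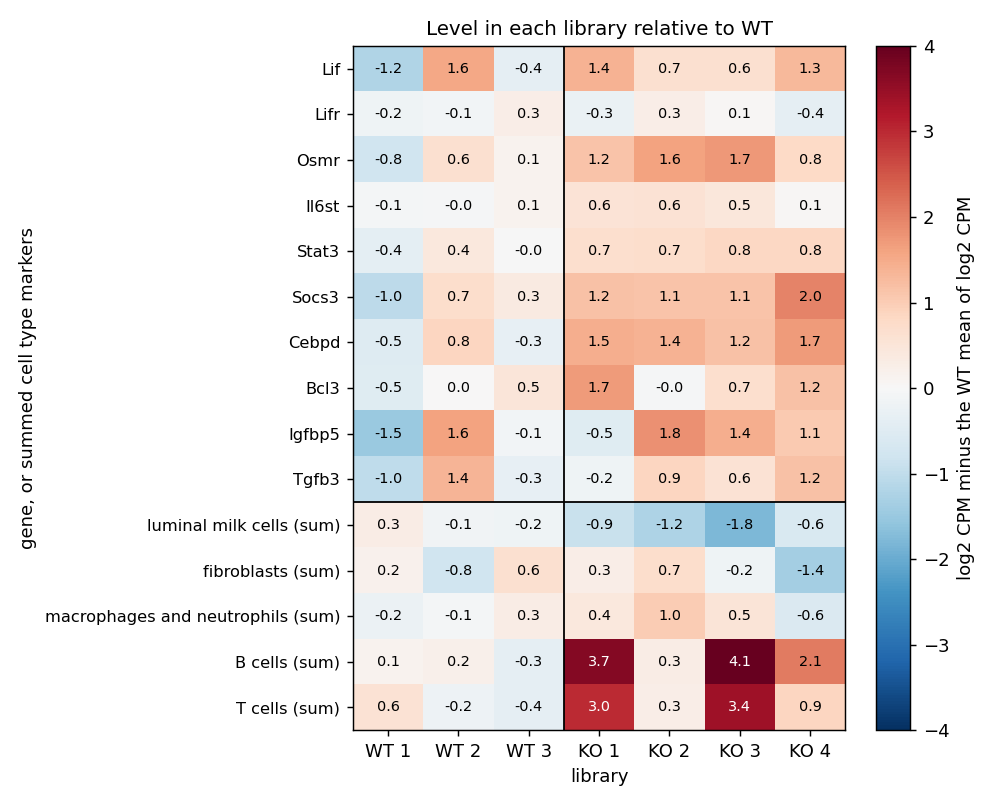
Log2 CPM in each of the 7 libraries minus the WT mean of log2 CPM, for the 10 genes (above the line) and for summed markers of cell types (below). WT replicate 1 is blue in all 10 genes, KO replicates 1 and 3 are dark red in the B-cell and T-cell sums, and *Stat3* is between 0.67 and 0.84 in all KO libraries.

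Levels between genes were compared per kilobase of exon (RPKM after TMM scaling). In WT libraries the order was *Igfbp5* with 287 ± 285 RPKM, *Tgfb3* with 105 ± 91.9, *Cebpd* with 46.7 ± 25.9, *Stat3* with 34.8 ± 9.69, *Il6st* with 28.7 ± 2.49, *Bcl3* with 12.7 ± 4.19, *Socs3* with 9.68 ± 5.02, *Lifr* with 9.57 ± 1.57, *Osmr* with 6.17 ± 2.80 and *Lif* with 1.84 ± 1.81 RPKM (SD, n = 3). In this order *Il6st* and *Bcl3* were the only neighbors further apart than their SDs added together. In KO libraries *Osmr*, with 14.7 ± 4.22 RPKM (SD, n = 4), came before *Lifr*, with 9.13 ± 1.88 RPKM, and the other genes kept their order, from 450 ± 239 RPKM for *Igfbp5* down to 2.73 ± 0.746 RPKM for *Lif*. There the neighbors that lay within their added SDs were *Tgfb3* and *Cebpd*, and each pair from *Il6st* through *Bcl3*, *Socs3* and *Osmr* to *Lifr*. The ligand was thus the least abundant transcript in both genotypes.

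TDP-43 is known to bind RNA at repeats of U and G, written TG in the genome. Runs of at least 3 TG were found in the longest transcript of 8 of the 10 genes, all but *Osmr* and *Cebpd*, and in 69.0% of all tested genes. A run of 6 or more was in none of the 10 transcripts and in 6.53% of all. Of the 6 genes with an unadjusted p under 0.05, *Il6st*, *Stat3*, *Socs3* and *Bcl3* held such runs and *Osmr* and *Cebpd* did not, and the 4 genes with a higher p all held runs. Of the 3 runs of *Lifr*, 1 had 5 TG, a length that 9.64% of genes reached or exceeded, and the 2 runs of *Socs3*, both in its 3′ UTR, had 3 TG each. The run of 5 TG of *Lifr* and both runs of *Socs3* are shown as examples from the 3′ UTR of a gene with little difference between the genotypes and of a gene with a large one, with the run in capitals. A match is a description and no evidence of binding.

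*Lifr* 3′ UTR at chr15:7147105-7147134 (forward strand): aggagattgaTGTGTGTGTGtctgcgattc

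*Socs3* 3′ UTR at chr11:117828384-117828413 (reverse strand): aagagaaaagggTGTGTGaagggtttttat

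*Socs3* 3′ UTR at chr11:117827628-117827657 (reverse strand): gggtggggcagcTGTGTGttggggtggctt

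In the whole gene with its introns, *Osmr* held 476 TG in 83 runs, or 7.84 per kilobase, a density that 3.81% of tested genes reached or exceeded. The longest run in *Osmr* had 23 TG, all outside the exons of the transcript. The longest run of all 10 genes, with 28 TG, was in *Lif*, a length that 5.60% of genes reached or exceeded. Runs of 6 or more in the whole gene were present in 5 of the 10 genes (*Lif*, *Lifr*, *Osmr*, *Il6st* and *Stat3*) and in 63.1% of all genes.

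Other cytokines and receptor chains that use or resemble gp130 were then examined. Of 12 genes, *Il6* had no count in any library, which at 3 counts per library allows up to 0.0614 to 0.113 CPM, and *Cntf* had between 1 and 11 counts, so 10 were tested. Of these, 3 were higher in KO libraries at an unadjusted p under 0.05 (*Osm*, *Clcf1* and *Il27ra*), 0 were lower and 7 were neither. Their median log2 fold change was 0.495. Among all genes, 10.7% were higher and 10.7% lower at that limit. *Osm*, the gene of oncostatin M, stood at 0.0752, 0.298 and 0.0595 CPM in the WT libraries (replicates 1 to 3) and at 1.04, 0.414, 1.21 and 0.373 CPM in the KO libraries (replicates 1 to 4), which rests on 2 to 10 counts per WT library. KO libraries were all above WT libraries, and the highest were the lymphocyte-rich KO replicates 1 and 3. The log2 fold change was 2.35 (SE 0.725, adjusted p = 0.127 by edgeR), but 1.07 with the lymphocyte covariate and 1.41 without KO replicates 1 and 3. *Clcf1*, a cytokine of the CNTF receptor, had 3.23, 4.95 and 2.79 CPM in WT libraries and 16.5, 7.71, 18.0 and 5.57 CPM in KO libraries, again highest in KO replicates 1 and 3 (log2 fold change 1.71, SE 0.448, adjusted p = 0.095, but 0.65 with the lymphocyte covariate and 0.86 without these libraries). *Il27ra*, the receptor chain for interleukin 27, had between 1.70 and 2.75 CPM in WT libraries and 14.5, 2.76, 16.7 and 2.80 CPM in KO libraries. The most abundant receptor genes of the list were *Il6ra*, with 66.2 ± 15.4 CPM in WT (SD, n = 3) and 77.9 ± 23.2 CPM in KO libraries (SD, n = 4, adjusted p = 0.655), and *Il11ra1*, with 47.7 ± 4.67 and 50.0 ± 6.96 CPM (adjusted p = 0.835).

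Among 12 Janus kinases and inhibitors of the pathway, 4 were higher at an unadjusted p under 0.05 (*Jak2*, *Socs1*, *Ptpn2* and *Ptpn6*), 0 were lower and 8 were neither, with a median of 0.36. At that limit 10.7% of all genes were higher and 10.7% lower. For 6 of the 12, every KO library was above every WT library, where 9.07% of all genes were so. *Ptpn2*, a phosphatase that acts on STAT proteins and Janus kinases, stood at 18.1, 20.7 and 13.6 CPM in the WT libraries (replicates 1 to 3) and at 29.0, 26.4, 32.0 and 27.0 CPM in the KO libraries (replicates 1 to 4). Its log2 fold change was 0.71 (SE 0.173, adjusted p = 0.0862 by edgeR), 0.54 with the lymphocyte covariate and 0.61 without KO replicates 1 and 3. Its KO values had the order of the lymphocyte markers. *Ptpn6*, a phosphatase of blood cells, had 20.5, 18.0 and 17.4 CPM in WT libraries and 49.1, 21.5, 60.5 and 25.2 CPM in KO libraries, in the order of the lymphocyte markers, and its log2 fold change of 1.07 (SE 0.352, adjusted p = 0.139) was −0.086 with these markers as a covariate. *Socs1* had between 1.69 and 1.99 CPM in WT libraries and 5.81, 2.02, 5.67 and 3.31 CPM in KO libraries. *Jak1* (160.4 ± 2.22 CPM in WT, SD, n = 3, and 192 ± 39.4 CPM in KO, SD, n = 4) and *Ptpn11* (108 ± 3.44 and 116 ± 9.63 CPM) were the most abundant and had adjusted p of 0.447 and 0.681.

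Of 18 further STAT3 targets and acute phase genes of involution, 3 were higher (*Junb*, *Fos* and *Bcl6*), 1 was lower (*Pim1*) and 14 were neither, with a median of 0.17. At the limit used, an unadjusted p under 0.05, 21.4% of all genes passed, 10.7% higher and 10.7% lower. *Junb* stood at 26.8, 64.8 and 47.7 CPM in the WT libraries (replicates 1 to 3) and at 202, 103, 93.0 and 154 CPM in the KO libraries (replicates 1 to 4). *Fos*, which with *Junb* encodes parts of the AP-1 transcription factor, had 20.6, 34.5 and 22.8 CPM in WT libraries and 46.7, 69.0, 44.9 and 112 CPM in KO libraries. For both, all KO libraries were above all WT libraries, a separation found for 9.07% of all genes. Log2 fold changes were 1.57 for *Junb* (SE 0.360, adjusted p = 0.0819 by edgeR) and 1.39 for *Fos* (SE 0.348, adjusted p = 0.0887). *Pim1*, a kinase of cell survival, had 115, 83.6 and 86.4 CPM in WT libraries and 44.9, 74.8, 38.4 and 73.6 CPM in KO libraries, all below WT, as were 9.62% of all genes.

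*Saa1* and *Lcn2*, which encode abundant secreted acute phase proteins, differed more between libraries than between genotypes. *Saa1* stood at 406, 5364 and 2483 CPM in the WT libraries (replicates 1 to 3) and at 964, 2026, 2534 and 6041 CPM in the KO libraries (replicates 1 to 4). *Lcn2*, which binds bacterial siderophores, had 1212, 3248 and 2909.9 CPM in WT libraries and 1385, 2460.1, 2535 and 4742 CPM in KO libraries. In both genes WT replicate 1 was the lowest and KO replicate 4 the highest of all libraries, and the groups overlapped. Log2 fold changes were 0.07 for *Saa1* (SE 0.801, adjusted p = 0.972 by edgeR) and 0.18 for *Lcn2* (SE 0.464, adjusted p = 0.863).

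Of 14 genes of the TGF-beta pathway, 3 were higher (*Tgfb1*, *Smad4* and *Ltbp1*), 2 were lower (*Tgfb2* and *Smad3*) and 9 were neither, with a median of 0.19. Of all genes, 21.4% passed that unadjusted p of 0.05, 10.7% higher and 10.7% lower. For each of these 5 genes of the pathway the groups did not overlap. Among all genes, 9.07% had every KO library above every WT library and 9.62% had every one below. *Tgfb1* stood at 22.4, 24.1 and 28.3 CPM in the WT libraries (replicates 1 to 3) and at 50.5, 39.7, 45.7 and 39.3 CPM in the KO libraries (replicates 1 to 4), a log2 fold change of 0.81 (SE 0.152, adjusted p = 0.0692 by edgeR). *Tgfb2* had 50.5, 75.6 and 61.0 CPM in WT libraries and 38.4, 28.5, 26.4 and 37.1 CPM in KO libraries, a log2 fold change of −0.94 (SE 0.191, adjusted p = 0.0739). *Tgfb3*, given above, was not distinguishable between the genotypes. The differences between these 3 ligands were not tested. The most abundant genes were the receptor *Tgfbr2*, with 265 ± 26.2 CPM (SD, n = 3) and 222 ± 45.3 CPM (SD, n = 4, adjusted p = 0.48), and the latent TGF-beta binding protein *Ltbp3*, with 251 ± 112 and 296 ± 81.6 CPM (adjusted p = 0.723).

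Of 11 tested genes of the IGF axis, on which IGFBP5 acts, 2 were higher (*Igf1r* and *Pappa*), 1 was lower (*Igfals*) and 8 were neither, with a median of −0.068. This again used an unadjusted p under 0.05, which 10.7% of all genes passed as higher and 10.7% as lower. *Igfbp1* had no count in any library and was not tested. *Igf1r*, the receptor of insulin-like growth factors, stood at 6.88, 3.72 and 7.25 CPM in the WT libraries (replicates 1 to 3) and at 12, 15.0, 11.5 and 7.36 CPM in the KO libraries (replicates 1 to 4), with KO replicate 4 just above WT (log2 fold change 0.95, SE 0.313, adjusted p = 0.14). *Pappa*, a protease that frees these factors from binding proteins, was at 1.03 ± 0.231 CPM in WT libraries (SD, n = 3) and 2.37 ± 0.983 CPM in KO libraries (SD, n = 4, adjusted p = 0.147). *Igfals*, which holds them in a ternary complex, was at 265 ± 43.2 and 152.0 ± 55.1 CPM (log2 fold change −0.80, adjusted p = 0.153, but −0.22 with the lymphocyte covariate), with KO replicate 4 within the WT range. *Igfbp7*, also abundant, was at 186 ± 45.8 and 190 ± 77.6 CPM (adjusted p = 0.967).

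Of 12 genes of cell death and matrix remodeling in involution, 1 was higher (*Tnf*), 0 were lower and 11 were neither, with a median of 0.27. The shares of all genes at an unadjusted p under 0.05 were 10.7% higher and 10.7% lower. *Tnf*, an inflammatory cytokine, stood at 0.752, 1.43 and 1.13 CPM in the WT libraries (replicates 1 to 3) and at 4.46, 1.10, 3.89 and 2.08 CPM in the KO libraries (replicates 1 to 4), with the highest values in the lymphocyte-rich libraries (log2 fold change 1.38, adjusted p = 0.169, and −0.12 with lymphocyte markers as a covariate). The death receptor *Fas* was at 10.8 ± 2.69 CPM in WT (SD, n = 3) and 14.5 ± 2.53 CPM in KO libraries (SD, n = 4, adjusted p = 0.309). *Clu*, a chaperone abundant in the involuting gland, was at 1756 ± 652 and 1679 ± 374 CPM (adjusted p = 0.931), and *Tnfrsf1a*, the receptor of TNF, at 152 ± 14.9 and 162 ± 9.11 CPM (adjusted p = 0.762).

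**Figure D5:**
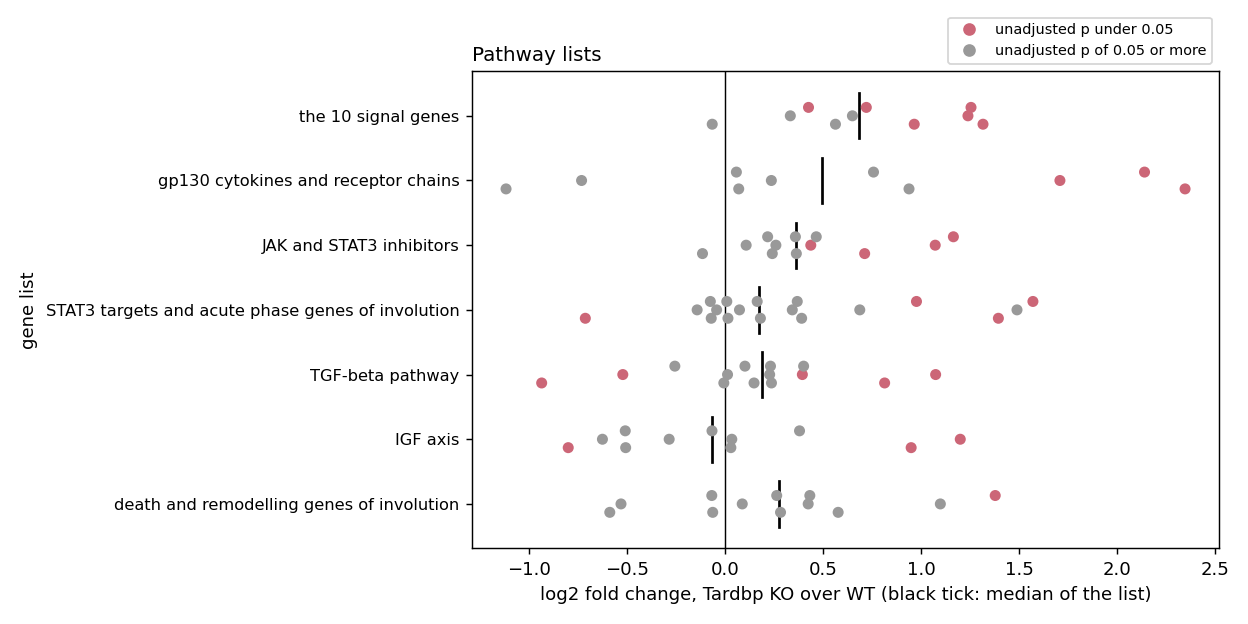
Log2 fold change, *Tardbp* KO over WT, of each tested gene of the 10 and of 6 lists of the pathways around them, with the median of each list as a black tick. Points in red have an unadjusted p under 0.05; the medians run from −0.068 for the IGF axis to 0.68 for the 10 genes, and each list has gray points on or near 0.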

How the data were processed

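RNA of 7 mammary glands was sequenced, and the deposited values are raw counts per gene without normalization. The authors extracted total RNA with Trizol, prepared TruSeq libraries, mapped paired-end reads with STAR to NCBIM37 (the submitters' processing notes name version 2.5.2a) and counted them on GENCODE vM1 exons with featureCounts 1.4.6-p5. No option for strand, pairs or multimapping reads was set, so mates counted separately and reads over several genes were left out. A further library (1) on the counter's command line is without a column and not analysed here.

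Genes of mitochondria (37) and ribosomes (580) were dropped, as were those that did not reach 5 counts in 4 libraries. Genotypes were compared with TMM scaling and the quasi-likelihood test of edgeR 4.0.16 in R 4.3.3, with Benjamini-Hochberg adjustment over 17175 genes. The standard error is the log2 fold change over the root of the F statistic. RPKM are TMM-scaled CPM per kilobase of annotated exon. Alternatives were DESeq2 1.42.0, edgeR's exact and robust tests, other scalings, filters and limits, a replicate block, lymphocyte markers as a covariate, omitted libraries and lane 4 alone. Scripts were tested on simulated data. Sequences were read from NCBIM37 by annotation coordinates. A further sequence is not reported here. From each pathway list the 2 genes of lowest p and the 2 of highest mean CPM are named, and *Jak2*, *Socs1*, *Il27ra*, *Bcl6*, *Pim1*, *Smad3*, *Smad4* and *Ltbp1* were named after their values were seen. The members and lists were chosen with earlier results of these data known. Tables were made with Python 3.11.15 and pandas 2.3.3. Counting limits cover counting error only.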

Additional observations from a re-analysis of the deposited data

Results flagged for a closer look

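*Socs3* in KO replicate 4 stood apart from the other KO libraries, with 99.3 CPM against 54.7 to 55.7 CPM in KO replicates 1 to 3. Its gap to the nearest library was 0.978 of the range of the group, above Dixon's 95% critical value for 4 samples. It was the only one of 38 sets of 4 KO values examined to exceed it, and chance alone exceeds it in about 1 of 20 sets. The log2 fold change of *Socs3* was 0.96 without this library and 1.24 with it.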

How the results depend on the processing

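With the study's limits, the 0 genes called became 1 without a filter on low counts, 419 with edgeR's exact test, 572 with DESeq2's Wald test and 1 at an adjusted p under 0.05 without a limit on the fold change, and the 0 of 10 signal genes called became 1 and 2 with the exact test and DESeq2. The 6 signal genes at an unadjusted p under 0.05 became 3 with the lymphocyte covariate, and 4 to 7 when single libraries were left out. There were 4 without WT replicate 1 or KO replicate 1, and 7 without WT replicate 2. Of all genes, 3674 of 17175 were under that limit with all libraries and no covariate, and 1506 of 17175 with the covariate. Without WT replicate 1, KO replicate 1 and WT replicate 2 these were 2158 of 17670, 3482 of 17475 and 4416 of 17608. Scaling by library size alone moved the median log2 fold change of all genes from 0.05 to 0.42 and that of the 10 genes from 0.68 to 1.03, and turned the log2 fold change of *Lifr* to 0.31, of *Tgfbr2* to 0.12 and of *Clu* to 0.26. With the lymphocyte covariate the sign turned for *Lifr* (0.13), *Tardbp* (−0.0097), *Ptpn6* (−0.086), *Igfbp7* (−0.18), *Tnf* (−0.12) and *Clu* (0.25), and without KO replicates 1 and 3 for *Igfbp7* (−0.27) and *Clu* (0.12). With DESeq2's size factors and Wald test *Tardbp* was at −0.0050. Leaving out single libraries gave log2 fold changes from −0.19 to 0.074 for *Lifr*, −0.058 to 1.33 for *Tgfb3* and −0.093 to 0.16 for *Tardbp*. They ran from −0.036 to 0.15 for *Il11ra1*, −0.59 to 1.00 for *Saa1* and −0.23 to 0.43 for *Lcn2*. For *Ltbp3*, *Igfbp7* and *Clu* they ran from −0.019 to 0.64, −0.26 to 0.21 and −0.33 to 0.18. No other of the 10 genes or of those named for lowest p or highest mean CPM changed sign. The further named genes were not examined in this way. The log2 ratios ranged from 1.09 to 1.77 for *Osmr* to *Lifr*, from 0.28 to 0.79 for *Socs3* to *Stat3* and from 0.53 to 0.90 for *Cebpd* to *Stat3*, and the smallest p these smaller designs allow is larger. The cause of these changes was not tested. Replicate numbers did not pair the libraries: deviations from the group means correlated at r = 0.35, 0.094 and −0.058 for numbers 1 to 3, and only the replicates numbered 1 correlated best with each other. With the replicate number as a block, to which KO replicate 4 adds nothing, 0 genes were called, 0 of the 10 signal genes were called and 6 had an unadjusted p under 0.05, among them *Igfbp5* (log2 fold change 0.93, unadjusted p = 0.0203) but not *Bcl3* (0.76, unadjusted p = 0.119). With the block 4225 of 17175 genes had an unadjusted p under 0.05, beside 3674 without it. *Osmr* and *Cebpd* had adjusted p of 0.0328 and 0.0493 by edgeR in this fit, where the share of all genes under 0.05 was not taken. In it the log2 fold change was 0.015 for *Lifr*, −0.040 for *Tardbp*, −0.015 for *Il11ra1*, −0.038 for *Saa1* and −0.14 for *Lcn2*. With this block the log2 ratios were 1.48, 0.41 and 0.61 in the same order. Differences of the size of that of *Lif*, *Igfbp5* or *Tgfb3* are not resolved by 3 and 4 libraries that vary this much.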
